A study of Rattus norvegicus with 8 samples.

Results

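The glucocorticoid receptor, the immunophilins that sit in its chaperone complex, its cofactors and the enzymes that make or remove its natural ligand were followed in rat thymocytes, the immature T cells of the thymus, with and without dexamethasone. The members were the receptors Nr3c1 and Nr3c2, the immunophilins Fkbp4 and Fkbp5, the steroid enzymes Hsd11b1 and Hsd11b2, and the cofactors Ncoa1, Ncoa2 and Ncor1. They were found by the gene name printed with each probe of the array, which gave 21 oligos of 9 genes. The whole array held 41012 probes, and 15483 genes could be given a current symbol. Every oligo of the 9 genes was kept.

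All cells came from adrenalectomized male Sprague-Dawley rats, an operation that takes away the main source of the animals' own glucocorticoid, and thymi of 3 rats were pooled in serum-supplemented RPMI medium for a preparation. The Control group (4 arrays) was cultured without dexamethasone, and the Dex group (4 arrays) with 100 nM dexamethasone, a synthetic glucocorticoid, for 6 hours. The thymus suspension was filtered through mesh and no sort for thymocytes is described. The labels do not say whether each replicate was a pool of its own, so the p-values measure only the spread between these 8 arrays. The study's description gives 3 biological replicates and the labels 4 in each group, and all 8 arrays were used.

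Glucocorticoids cross the cell membrane and bind the glucocorticoid receptor, a nuclear receptor that waits in the cytoplasm in a complex with Hsp90 and an immunophilin. Once bound, the receptor moves into the nucleus, binds DNA and recruits coactivators or corepressors, and immature thymocytes exposed to the hormone die by apoptosis. FKBP51, the product of Fkbp5, is known to lower the affinity of the receptor for hormone and is a widely used reporter of receptor activity, whereas FKBP52, the product of Fkbp4, is known to favor receptor activity. The enzyme 11β-hydroxysteroid dehydrogenase works in opposite directions in its forms: the product of Hsd11b1 regenerates active corticosteroid and that of Hsd11b2 inactivates it.

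Each probe is a 60-base oligo, and the values given below are log2 intensities after quantile normalisation, which gives all arrays the same distribution. A difference is Dex minus Control on that log2 scale, with the standard error (SE) of a limma fit over all 41012 probes, and a probe was called when its Benjamini-Hochberg adjusted p was under 0.05. Probe positions are those of the rat build rn3. Levels of different oligos are not compared, because an oligo's brightness depends on its own sequence. RNA was taken from the whole culture, so that fewer cells of a type and less RNA per cell cannot be told apart.

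Fkbp5 was represented by 3 oligos on the minus strand of chromosome 20, at chr20:6637827-6637886 (A_44_P532249), chr20:6638510-6638569 (A_44_P519167) and chr20:6647588-6647647 (A_43_P18969). The stretch from the first base to the last covered 9821 bases. Because Fkbp5 and Fkbp4 encode related proteins and gave different results, the oligos of both genes that are also assigned to an Ensembl transcript are shown, so that a reader can see that they are separate sequences. Capitals mark the longest run of bases that a printed Fkbp5 oligo and a printed Fkbp4 oligo have in common.
Fkbp5 A_43_P18969: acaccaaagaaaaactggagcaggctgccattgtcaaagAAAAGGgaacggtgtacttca
Fkbp4 A_44_P179282: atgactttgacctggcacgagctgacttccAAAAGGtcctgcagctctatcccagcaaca
Fkbp4 A_44_P139925: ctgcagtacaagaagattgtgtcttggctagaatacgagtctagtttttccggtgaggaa
The shared run was 6 bases long. Over all 9 pairs of a Fkbp5 and a Fkbp4 oligo the longest common run was 7 bases, and no ungapped alignment matched more than 23 of the 60 bases.

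Fkbp5 rose about 3-fold with dexamethasone on each of its oligos, and it was the only member called. The brightest oligo, A_44_P532249, read 12.54, 12.72, 12.64 and 12.67 in Control replicates 1 to 4 and 14.45, 14.33, 14.40 and 14.30 in Dex replicates 1 to 4. All 4 Dex arrays lay above all 4 Control arrays, with 1.58 log2 units between the closest arrays of the groups. The mean went from 12.64 ± 0.08 (SD, n = 4) to 14.37 ± 0.07 (SD, n = 4), a difference of 1.73 ± 0.13 (SE) or 3.32-fold (limma adjusted p = 0.00133).

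The oligo A_44_P519167 read 11.23, 11.36, 11.36 and 11.28 in Control and 13.18, 12.99, 13.09 and 13.01 in Dex, again with a wide gap (1.63) between the groups. Its difference was 1.76 ± 0.13 (SE), 3.39-fold, with a limma adjusted p of 0.00128. The oligo 9018 bases further along the chromosome, A_43_P18969, read 9.81, 9.75, 9.51 and 9.76 in Control and 11.58, 11.61, 11.24 and 11.37 in Dex, and the groups were 1.43 apart. It differed by 1.75 ± 0.16 (SE), 3.35-fold, with a limma adjusted p of 0.00336. The 3 differences thus lay within 0.03 of each other, less than the SE of any of them.

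The same order held before the arrays were scaled to each other: the processed intensity of A_44_P532249 ran from 5084 to 7930 on the Control arrays and was 34149, 33295, 12266 and 10972 on Dex replicates 1 to 4. Dex replicates 3 and 4 were the dimmest arrays of the series, with 75th percentiles of intensity between 264 and 266 against 317 to 428 on the others. Among the 231 probes called higher in Dex over the whole array, the Fkbp5 oligos stood at positions 93, 98 and 101 by size of the difference. By p-value they stood at positions 30, 31 and 44 of all 41012 probes.

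**Figure D1:**
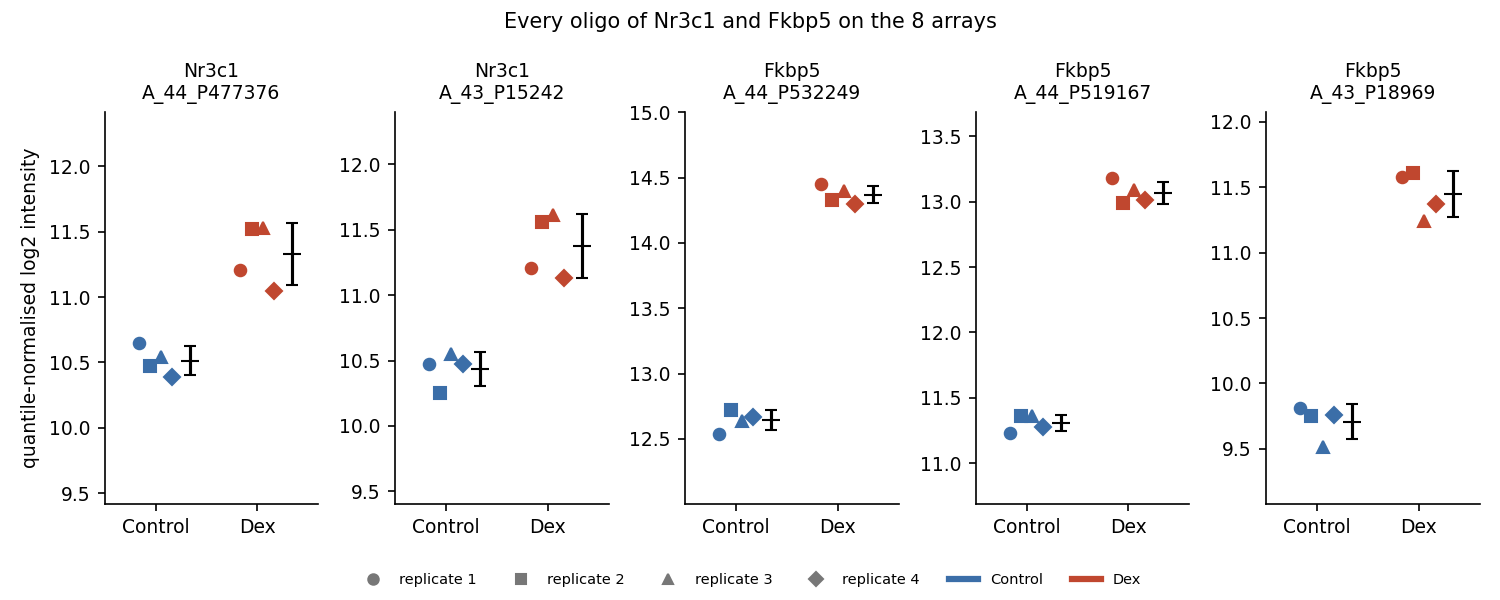
Quantile-normalised log2 intensity (y axis) of the 2 Nr3c1 oligos and the 3 Fkbp5 oligos in Control and Dex, with 1 symbol per array and the mean ± SD (n = 4) in black; each panel spans the same number of log2 units, and levels are not comparable between panels. Dex lay above Control without overlap in every panel, by 1.43 to 1.63 log2 units between the closest arrays for Fkbp5 and by 0.40 to 0.58 for Nr3c1.

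The arrays were printed on 3 slides. Control replicate 1 and Dex replicate 3 shared a slide and a scanner, Control replicates 2 to 4 shared another, and Dex replicates 1, 2 and 4 the last, so that for 6 of the 8 arrays slide and treatment cannot be told apart. On the shared slide, with 1 array of each group and no spread, the Fkbp5 oligos were 1.86, 1.86 and 1.43 higher in Dex, in the order given above. With the slide as a fixed term the oligos were no longer called (adjusted p = 0.290, 0.311 and 0.718), since that fit rests on the 2 arrays of the shared slide. Over all probes that fit called 1 probe. A block for the replicate number left them called (adjusted p = 0.0418, 0.0416 and 0.0415).

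The glucocorticoid receptor gene itself, Nr3c1, read higher on every Dex array than on every Control array, by 1.76-fold and 1.92-fold on its 2 oligos, but neither difference passed the test. Both oligos lie on the minus strand of chromosome 18, at chr18:32407198-32407257 (A_44_P477376) and chr18:32406831-32406892 (A_43_P15242), 305 bases apart. A_44_P477376 read 10.65, 10.47, 10.54 and 10.39 in Control and 11.21, 11.52, 11.53 and 11.05 in Dex, so that the groups were separated by 0.40. The means were 10.51 ± 0.11 (SD, n = 4) and 11.33 ± 0.24 (SD, n = 4), and the difference was 0.81 ± 0.17 (SE; limma adjusted p = 0.0951).

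A_43_P15242 read 10.47, 10.25, 10.55 and 10.47 in Control and 11.21, 11.56, 11.61 and 11.13 in Dex. This oligo was printed at 10 places on each array, and the SD of log2 intensity over those spots was between 0.0426 and 0.0716. The SD between arrays was 0.13 in Control and 0.25 in Dex. The difference was 0.94 ± 0.17 (SE; limma adjusted p = 0.0631). On both oligos Dex replicates 2 and 3 were the highest and Dex replicate 4 the lowest of the treated arrays.

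Before the arrays were scaled, the groups overlapped for Nr3c1. The processed intensity of A_44_P477376 ran from 1207 to 1897 in Control and was 3384, 4331, 1804 and 1265 on Dex replicates 1 to 4, where replicates 3 and 4 are the dim arrays described above. Scaling each array to its 75th percentile in place of quantile normalisation gave a difference of 0.85 for this oligo and 0.98 for A_43_P15242. On the shared slide the differences were 0.88 and 1.14. The calls depended on the processing: of 17 alternative settings of the limma test, 3 called both Nr3c1 oligos, namely another background correction (normexp; adjusted p = 0.0175 and 0.0109), a test without dim probes (0.0438 and 0.0288) and the slide as a random block (0.0152 and 0.0101). Of all probes tested these settings called 2.22%, 1.97% and 4.48%. The random block used a correlation of -0.235 between arrays of a slide. A negative correlation narrows the error of group means that lie largely on 1 slide each, as here. The signal to noise statistic, a different test, also called both (nominal permutation p = 0.000625 and 0.000491). These p-values take 1 tail of values pooled over all probes and all 70 assignments of the arrays, not of an oligo's own values alone.

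**Figure D2:**
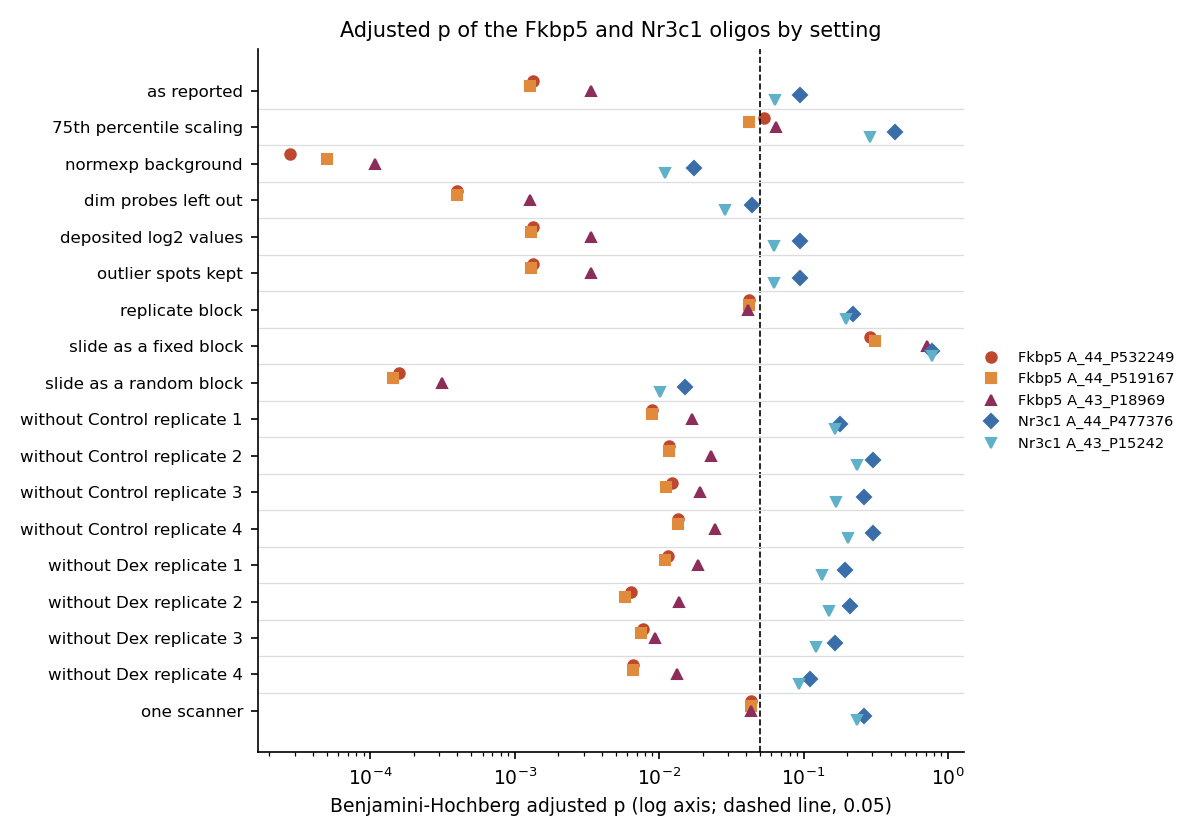
Benjamini-Hochberg adjusted p (x axis, log scale) of each Fkbp5 and Nr3c1 oligo under the reported setting and 17 other settings (rows), where "one scanner" uses the 6 arrays read on the same scanner. The Fkbp5 oligos lie left of the dashed line at 0.05 in every row but the slide as a fixed block and, for 2 of the 3, the 75th percentile scaling; the Nr3c1 oligos lie right of it in all but 3 rows.

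The mineralocorticoid receptor gene Nr3c2, whose product also binds corticosteroids, was at the edge of detection, and its oligos pointed in opposite directions. Each of the 2 oligos was well above background, a flag of the scanner software, on only 2 Control and 2 Dex arrays. A_44_P158441 (chr19:32592069-32592128) read 3.65, 3.94, 2.56 and 3.69 in Control and 3.05, 3.39, 5.09 and 3.78 in Dex, with a difference of 0.37 ± 0.48 (SE; limma adjusted p = 0.847). A_43_P15261 (chr19:32532891-32532949), 59119 bases away, read 1.32, 2.81, 4.16 and 2.33 in Control and 1.51, 1.88, 2.93 and 2.75 in Dex, with a difference of -0.39 ± 0.60 (SE; limma adjusted p = 0.874). Control and Dex overlapped on both, and no direction can be given for this gene.

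Fkbp4 did not pass the test on any of its 3 oligos. On all 3, Dex replicates 1 and 2 read above every Control array, while Dex replicates 3 and 4 read close to or below the Control range. A_44_P179282 (chr4:165695565-165695624) read 11.30, 11.26, 11.35 and 11.25 in Control and 11.67, 11.84, 11.38 and 11.28 in Dex, a difference of 0.25 ± 0.17 (SE; limma adjusted p = 0.683). For A_44_P139925 (chr4:165696234-165696293) the difference was 0.19 ± 0.18 (SE) and for A_44_P439665 (chr4:165693728-165693787) it was 0.10 ± 0.20 (SE), with limma adjusted p-values of 0.784 and 0.906. Without Dex replicate 2 the 3 differences were 0.15, 0.07 and -0.04. Dex replicates 1 and 2 also had the fewest probes well above background, 26474 and 24911 against 28666 to 34476 on the other 6 arrays. Whether this had a part in the Fkbp4 values was not tested.

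Hsd11b1 and Hsd11b2 both read low and neither passed the test. For Hsd11b1, the oligo A_44_P426345 (chr13:109252982-109253041) was well above background on all 8 arrays and read 4.62, 4.38, 4.55 and 4.71 in Control and 5.09, 5.26, 4.51 and 4.93 in Dex. The groups overlapped through Dex replicate 3, and the difference was 0.38 ± 0.20 (SE; limma adjusted p = 0.572). The other Hsd11b1 oligo, A_44_P1018957 (chr13:109252728-109252787), was not well above background on any array, where its values ran from 1.21 to 2.41 in Control and from 1.21 to 3.82 in Dex, so no fold is given for it.

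The single Hsd11b2 oligo, A_44_P545193 (chr19:35346294-35346353), read 4.66, 4.14, 4.40 and 4.18 in Control and 4.81, 4.72, 4.74 and 4.85 in Dex. All Dex arrays were above all Control arrays, by as little as 0.06, and the difference was 0.44 ± 0.16 (SE; limma adjusted p = 0.388). With the normexp background correction the differences of both enzyme genes were 0.09. That correction adds 50 to every intensity, which draws the log2 difference of any dim probe toward 0. The smaller normexp values of dim probes, here and below, therefore do not test their differences. Before scaling, the Hsd11b2 intensities overlapped, from 21.1 to 26.2 in Control and from 14.7 to 36.3 in Dex.

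The cofactor genes did not pass the test. Ncoa1 encodes the coactivator SRC-1 and Ncoa2 its relative GRIP1 (TIF2), which bind ligand-bound nuclear receptors. Ncoa1 read lower in Dex on both oligos: A_44_P996204 (chr6:27229384-27229443) read 9.12, 9.19, 9.26 and 9.25 in Control and 8.99, 9.11, 8.83 and 8.61 in Dex, with 0.01 between the groups. Its difference was -0.32 ± 0.16 (SE; limma adjusted p = 0.548), and that of A_44_P781559 (chr6:27228437-27228496), where the groups overlapped, was -0.21 ± 0.19 (SE; limma adjusted p = 0.761). With 1 array left out A_44_P781559 ranged from -0.31 to -0.10.

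Ncoa2, with the oligo A_43_P12695 (chr5:5268916-5268975), read 7.50, 7.57, 8.10 and 7.65 in Control and 7.57, 7.49, 8.54 and 8.45 in Dex. The groups overlapped, since Dex replicates 1 and 2 lay within or below the Control range and Dex replicates 3 and 4 above it. The difference was 0.31 ± 0.29 (SE; limma adjusted p = 0.776), and it ranged from 0.14 without Dex replicate 3 to 0.49 without Dex replicate 2 and was 1.04 on the shared slide.

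Ncor1 encodes a corepressor that holds histone deacetylase activity at nuclear receptors, and its 5 oligos on the minus strand of chromosome 10 all read lower in Dex, by -0.12 to -0.28, without passing the test (limma adjusted p = 0.602 to 0.880). The brightest, A_44_P551919 (chr10:48577346-48577405), read 13.19, 13.30, 13.37 and 13.17 in Control and 12.99, 12.78, 13.26 and 12.92 in Dex, and Dex replicate 3 lay within the Control range. The groups were apart only for A_44_P974313, which read 8.69, 8.50, 8.63 and 8.50 in Control and 8.42, 8.38, 8.38 and 8.0 in Dex, with 0.07 between them and a difference of -0.28 ± 0.16 (SE; limma adjusted p = 0.602). The rn3 position of this oligo covers 8383 bases (chr10:48590262-48598644) for 60 bases of sequence, and that of A_44_P1016222 covers 1611 (chr10:48496934-48498544), so both are assembled from more than 1 piece of the genome. A_44_P1016222, A_44_P1016217 and A_44_P713311 differed by -0.12, -0.12 and -0.20 and overlapped between the groups. With 1 array left out A_44_P1016217 ranged from -0.25 to -0.02.

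**Figure D3:**
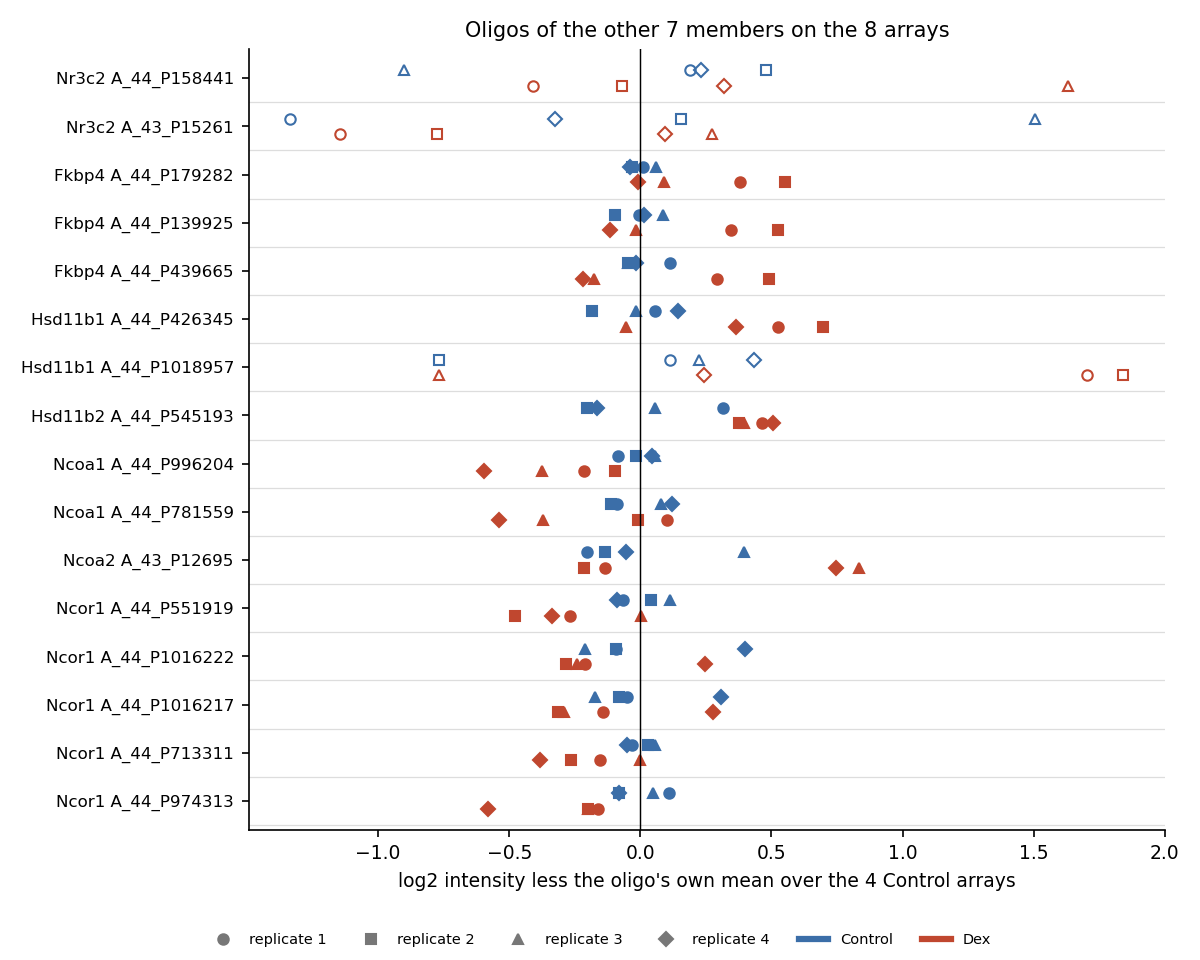
Log2 intensity less the oligo's own Control mean (x axis) for the 16 oligos of the other 7 members (rows), with 1 symbol per array, Control above and Dex below in each row; open symbols mark oligos not well above background on every array. Dex replicates 1 and 2 lie to the right for Fkbp4, the Ncor1 and Ncoa1 oligos lean to the left in Dex, and the Nr3c2 oligos scatter on both sides.

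Counted together, 3 of the 21 oligos were called, all higher in Dex and all of Fkbp5. Over the whole array 0.778% of probes were called (231 higher and 88 lower), and 0.563% were called higher. Blocking on the replicate number gave 81 calls (75 higher and 6 lower), and normexp gave 912 (497 higher and 415 lower). Of the oligos, 6 had an unadjusted limma p under 0.05: the 3 of Fkbp5, the 2 of Nr3c1 and that of Hsd11b2. Over all probes 10.6% were under that threshold. For those same 6 every Dex array was above every Control array, a pattern shown by 4.60% of all probes, and for 2, 1 each of Ncoa1 and Ncor1, every Dex array was below, which held for 4.51% of all probes. The same 6 were also called by the signal to noise statistic named in the methods, at a nominal p of 0.01 and a fold of 1.2, which called 6.79% of all probes. It was run here on all arrays and all their assignments. The paper states 3 replicates and sample and probe permutations, so this share is not the paper's own count. Of the 20 oligos above background on at least 1 array, 12 read higher and 8 lower in Dex with a median difference of 0.22, against a median of 0.00 over all probes.

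**Figure D4:**
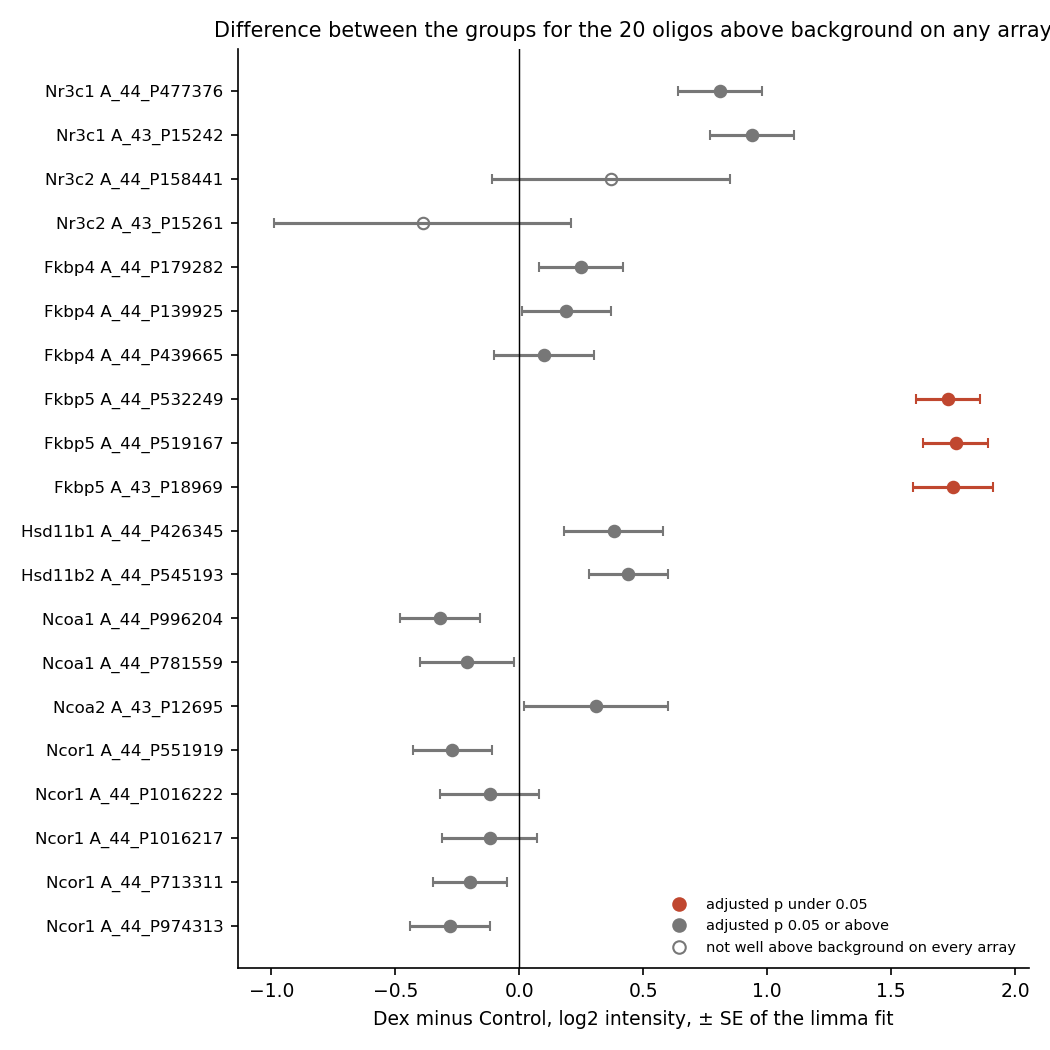
Dex minus Control in log2 intensity (x axis) with the SE of the limma fit (bars) for the 20 oligos that were well above background on at least 1 array (rows). The 3 Fkbp5 oligos, in red, lie between 1.73 and 1.76; all others, in gray, have adjusted p-values of 0.05 or above, and the Nr3c1 oligos lie at 0.81 and 0.94.

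Other genes of the pathway were read from 4 lists, each gene by its brightest probe, and none was called in either direction. The receptor complex list, of chaperones, co-chaperones and related genes that need not all act on this receptor, had 19 of 22 genes on the array. Of these 9 read higher and 10 lower in Dex, with a median of -0.05. The largest values of the list were -0.41 ± 0.13 (SE) for Ywhah, a 14-3-3 protein (limma adjusted p = 0.311), and 0.36 ± 0.15 (SE) for St13, the Hsp70-interacting protein Hip (limma adjusted p = 0.440). At an unadjusted limma p under 0.05 there were 3 of the 19, where 10.6% of all probes passed. With normexp 1 gene of the list was called, Ywhah, at -0.42, where 2.22% of all probes were, and by the signal to noise statistic 4, where 6.79% of all probes were. Of those 4, St13 (0.36) and the Hsp70 family gene Hspa8 (0.34) were higher and Ywhah (-0.41) and the Hsp90 family gene Hsp90b1 (-0.34) lower.

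The coregulator list had 35 of 37 genes on the array, of which 9 read higher and 26 lower in Dex, with a median of -0.12. At an unadjusted limma p under 0.05 there were 8 of the 35, where 10.6% of all probes passed. The largest values were 0.90 ± 0.23 (SE) for Tbl1xr1, a subunit of the corepressor complex that holds Ncor1 (limma adjusted p = 0.181), and -0.88 ± 0.49 (SE) for the coactivator Ppargc1a (limma adjusted p = 0.600), which was well above background on 1 Control and 1 Dex array. With normexp these values were 0.60 and -0.03. With normexp, which called 2.22% of all probes, 3 genes of the list were called, all lower: the receptor interacting corepressor Nrip1 (-0.65), the chromatin remodeling ATPase Smarca4 (-0.47) and the deacetylase Hdac2 (-0.32). The slide as a random block called 2, Nrip1 (-0.73) and Tbl1xr1 (0.93), where 4.48% of all probes were called. The signal to noise statistic, which called 6.79% of all probes, called 6: Tbl1xr1 (0.90) and the acetyltransferase gene Kat2a (0.41) higher, and Nrip1 (-0.79), Hdac1 (-0.62), Smarca4 (-0.48) and Hdac2 (-0.31) lower.

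Steroid enzymes and transport had 29 of 30 genes on the array, 14 higher and 15 lower with a median of -0.02, and only 16 of them were well above background on every array. At an unadjusted limma p under 0.05 there were 3 of the 29, where 10.6% of all probes passed. The largest values of that list belonged to dim probes: -1.31 ± 0.72 (SE) for Serpina6, which encodes corticosteroid-binding globulin and was well above background on 2 arrays of each group (limma adjusted p = 0.597; -0.76 with 75th percentile scaling and -0.14 with normexp), and Cyp11a1, the side-chain cleavage enzyme that starts steroid synthesis. Cyp11a1 was not well above background on any Control array and on 1 Dex array. It read 2.05 to 2.48 in Control and 1.90 to 4.33 in Dex (limma adjusted p = 0.419), and no fold is given for it. It was called by limma when Dex replicate 3 was left out (adjusted p = 0.0141), and the signal to noise statistic called 2 other genes of the list, Sts at 0.44 and Abcb1b, whose probe was not well above background on any array; it called 6.79% of all probes.

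Of the other steroid receptors 6 of 7 were on the array, 4 higher and 2 lower with a median of 0.09. The receptors at the ends of that list were dim, since Esrrg was not well above background on any array, and Esr1 on 1 Dex array alone. Only 2 of the 6 receptors were well above background on all arrays, and none had an unadjusted limma p under 0.05.

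**Figure D5:**
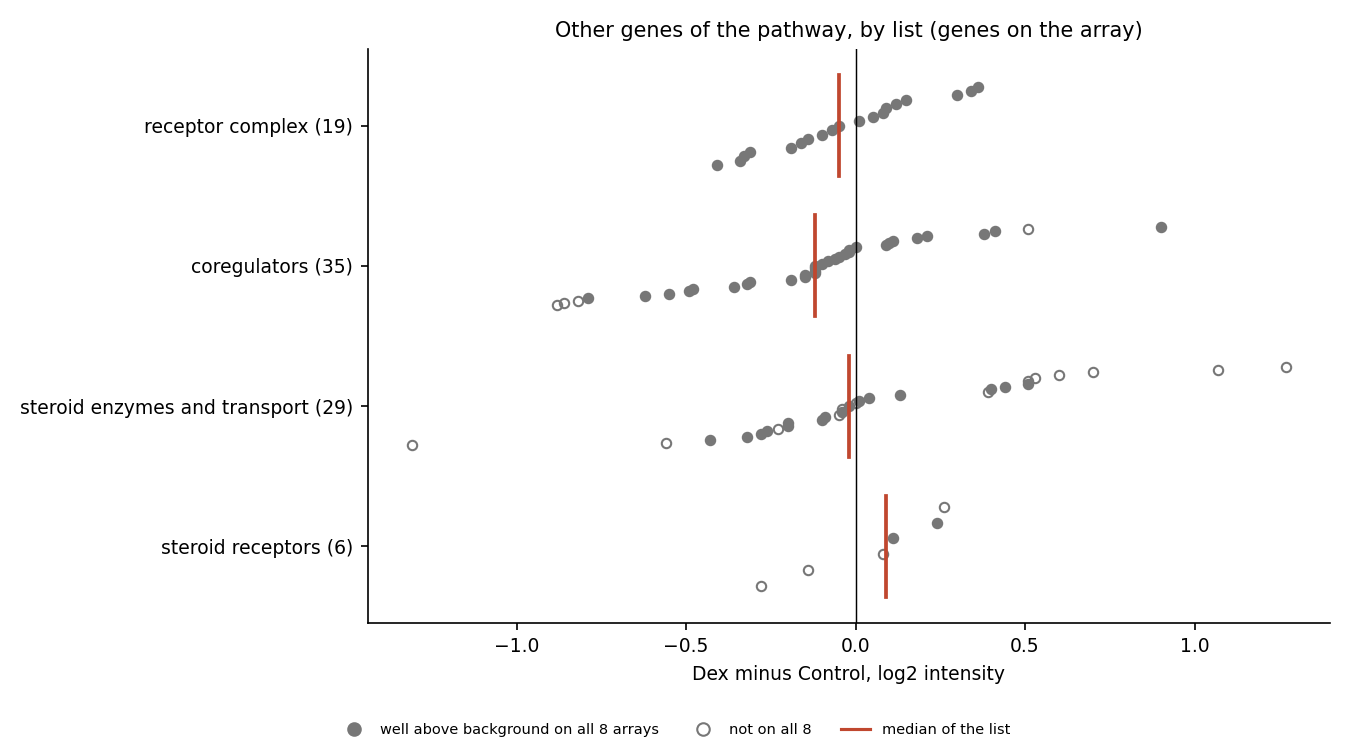
Dex minus Control in log2 intensity (x axis) for the brightest probe of each gene in 4 lists of the pathway (rows, with the number of genes on the array), where open circles mark probes not well above background on all 8 arrays and red bars the list medians. The medians lie between -0.12 and 0.09, and the 3 points farthest from 0 are open circles, all of steroid enzymes and transport.

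To place Fkbp5 and Nr3c1 among the other genes, the 8 values of each, less the Control mean, were set against those of 10254 other named genes whose brightest probe was well above background on all arrays. Nearest to Fkbp5, by root mean square difference in log2 over the 8 arrays, were Ccdc115 (0.129), the Cdc37-like co-chaperone gene Cdc37l1 (0.144) and the inositol trisphosphate kinase gene Itpka (0.173), with differences of 1.82, 1.66 and 1.93 and limma adjusted p-values of 0.00163, 0.00339 and 0.00160. Nearest to Nr3c1 were Dynlt1 (0.125), a dynein light chain gene, Prkar1a (0.151), which encodes a regulatory subunit of protein kinase A, and the phosphatase gene Ptpn18 (0.152). Their differences were 0.72, 0.71 and 0.82. Since these genes were picked for the likeness of their values, their differences are a description.

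Upstream sequence was read from RefSeq windows of build GRCr8, 250 bases before to 50 after a gene's start, which held 6 windows of 5 members (Nr3c1, Fkbp4, Fkbp5, Ncoa1 and Ncor1). The half-site TGTTCT of the glucocorticoid response element, searched on both strands, was in 1 of these windows, that of Ncoa1, and in 20.7% of all 33469 windows. The letters were not in the window of Fkbp5 or in either window of Nr3c1.

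The cells carried thymocyte RNA in both groups: all 10 thymocyte marker genes on the array, among them Cd4, Cd8a, Rag1 and Cd3e, were well above background on every array, and none was called. Of the 10 genes 3 read higher and 7 lower in Dex, with a median of -0.15, among them Ptcra (-0.61), Rag1 (-0.59) and Cd8b (0.52). Their summed intensity was 197479 to 275422 in Control and 249585 to 305530 in Dex. Most of that sum came from Cd3d, Cd8b and Cd8a, with Control means of 17.07, 15.95 and 15.29. Markers of other cells summed to 4489 to 6193 and 4367 to 8815 for macrophages (11 genes, none called), 341 to 461 and 226 to 566 for B cells (4, none called), 851 to 1274 and 776 to 1680 for stroma and epithelium (10, of which the endothelial gene Pecam1 was called at 1.36, adjusted p = 0.0208, but not with the replicate block, adjusted p = 0.108, and was 0.60 with normexp), and 313 to 1395 and 353 to 2368 for erythroid cells (4, none called). Fat cell markers, with 6 genes and none called, summed to 253 to 380 in Control and 387 to 516 in Dex and were the 1 marker list without overlap, with 4 genes higher and 2 lower, from -0.58 for Adipoq to 1.05 for Cfd. Cfd was the brightest of these probes, with means of 7.20 in Control and 8.24 in Dex, and weighed most in the sum. Of the macrophage markers 7 read higher and 4 lower, with a median of 0.15. An unadjusted limma p under 0.05 was found for 3 of the 11, where 10.6% of all probes had one. C1qa, C1qb and C1qc read 0.72, 0.84 and 0.97 higher in Dex (0.39, 0.69 and 0.59 with normexp), without a call. The macrophage receptor gene Mrc1 ran from 3.37 to 4.91 in Control and from 5.20 to 6.81 in Dex, a difference of 2.12 ± 0.43 (SE; limma adjusted p = 0.0870) that was 0.69 with normexp, while Cd14 differed by -0.77 ± 0.39 (SE; limma adjusted p = 0.556). Of the 10 stroma and epithelium genes 9 read higher in Dex, with a median of 0.59, and Pdgfrb, well above background on 2 Control and 3 Dex arrays, differed by 1.72 ± 0.43 (SE; limma adjusted p = 0.160), or by 0.32 with normexp. Col1a1 and Col1a2 were well above background on all arrays, whereas Dcn and Pdgfra were so on none. These genes were named after their values were seen. Whether any of these cells had a part in the Fkbp5 or Nr3c1 values was not tested.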

How the data were processed

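The members and the lists were chosen with earlier results of these data known. Cy3-labeled RNA was hybridised by the authors to Agilent Whole Rat Genome arrays, and the deposited intensities come from Feature Extraction 9.5.3.1, background corrected but not normalised between arrays. The log2 table that the authors deposited beside them was quantile normalised and summarised by median polish, and recomputing it here gave the same values to a median absolute difference of 0.00158 or less per array.

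Outlier-flagged spots were dropped (16 missing values remained) and no spot was saturated. Scaling and summary followed the methods, and limma 3.58.1 in R 4.3.3 (lmFit, eBayes, two-sided, no block) tested all 41012 probes. The fit was tested on simulated data. Of the probes 10852 were named through their accession, 5481 through the name on the array, 3692 through a synonym and 20987 were not named. Named genes were every member with all its oligos, the called genes of each list or else the largest in each direction, and the 3 nearest patterns to Fkbp5 and Nr3c1. Brightest is by mean over all arrays. The number of arrays limits the precision, and a sequence of build rn3 was not used here, so exon positions are not given. Whether an array's replicate number pairs it was checked by correlating deviations from the group means, which were 0.40, 0.13, 0.55 and 0.18 for like numbers, and as high for some unlike ones (0.40 for Control 1 with Dex 2). Every like-numbered value was over 0.1, but the unlike ones leave undecided whether the numbers pair the arrays. The reported fit has no block, and results with a block for the replicate number are given beside it.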

Additional observations from a re-analysis of the deposited data

Results flagged for a closer look

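Of 42 groups of 4 values, 2 held an array far from the other 3, where chance alone would give about 1 in 20. Both were Ncor1 oligos on Dex replicate 4, and they lay in opposite directions. A_44_P1016222 read 11.37 there, against 10.84 to 10.91 on the other Dex arrays, a gap of 0.875 of the range of the group. Control replicate 4 was also the highest of its group on this oligo (11.52 against 10.91 to 11.03), and the difference between the arrays numbered 4 was -0.15. A_44_P974313 read 8.0, against 8.38 to 8.42, a gap of 0.890. Both oligos were well above background on that array.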

How the results depend on the processing

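Fkbp5 kept its direction under all settings and its call under all but 2: it was 1.76 with scaling to the 75th percentile (adjusted p = 0.0533) and 1.86 with the slide as a fixed block (0.290). Leaving out each array gave 1.70 to 1.76 (adjusted p = 0.00635 to 0.0136). Nr3c1 kept its direction and gained the call with normexp (0.78), without dim probes (0.81), with the slide as a random block (0.80) and by the signal to noise statistic (0.81), and leaving out each array gave 0.75 to 0.91 without a call (adjusted p = 0.111 to 0.304). The number of oligos called was 3 whichever array was left out, 1 with 75th percentile scaling, 5 with normexp, without dim probes and with the slide as a random block, 0 with the slide as a fixed block and 6 by the signal to noise statistic. Over all probes, 319 calls became 166, 912, 562, 81, 1, 1838 and 2784 with 75th percentile scaling, normexp, no dim probes, the replicate block, the fixed and the random slide block and the signal to noise statistic, and 96 to 249 with 1 array left out, lowest without Control replicate 4. On the scanner that read 6 arrays, a setting chosen after seeing the data, 56 probes and the 3 Fkbp5 oligos were called (Fkbp5 1.69, adjusted p = 0.0430). The replicate block changed no call of a member. Hsd11b1 A_44_P1018957, not well above background on any array, was left out of these settings. Among the others, directions turned only for oligos not called: with the slide as a fixed block, Hsd11b1 A_44_P426345 (-0.12), Ncor1 A_44_P551919 (0.06) and A_44_P713311 (0.03), Nr3c2 A_43_P15261 (1.61), Fkbp4 A_44_P139925 (-0.01) and A_44_P439665 (-0.29); with 1 array left out, over which Nr3c2 A_44_P158441 ranged from -0.06 to 0.63 and A_43_P15261 from -0.83 to 0.11, Fkbp4 A_44_P439665 from -0.04 to 0.20 and Ncor1 A_44_P1016222 from -0.24 to 0.01; and Nr3c2 A_44_P158441 with 75th percentile scaling (-0.08) or averaged with the gene's other oligo (-0.01). The cause was not tested.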
